A study of Mus musculus with 4 samples.

Results

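The genes described here are those of major histocompatibility complex (MHC) class I antigen presentation and of the immunoproteasome. They are the 10 rows of both count tables whose gene name is B2m, H2-K1, H2-D1, Tap1, Tap2, Tapbp, Nlrc5, Psmb8, Psmb9 or Psmb10, out of 54532 genes with an Ensembl identifier. The names alone chose them, and each name matched 1 row. All 10 passed the filter on low counts, as did 13811 protein-coding genes in all.

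RNA was sequenced from primary microglia that had been grown from the cortex of male CD1 pups aged 1 to 3 days. The cultures had been treated for 24 h with 1 µM epigallocatechin gallate (EGCG, a galloylated flavan-3-ol of green tea) or with Vehicle alone, and there were 2 libraries per treatment, numbered as biological replicates 1 and 2 and called Vehicle 1, EGCG 1, Vehicle 2 and EGCG 2 below. Microglia for RNA had been obtained by detaching the astrocyte layer of mixed glial cultures with trypsin, so other glia could remain, and CD1 is an outbred stock whose alleles can differ from the reference genome. Nothing in the labels says whether the 2 replicate numbers came from separate litters, so p-values measure the spread between these libraries.

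MHC class I molecules sit on the surface of nearly all nucleated cells and show cytotoxic T cells short peptides cut from proteins made inside the cell. Proteasomes cut the peptides, a transporter moves them into the endoplasmic reticulum, and a loading complex fits them into a heavy chain joined to beta-2 microglobulin. Interferon gamma is known to raise this whole pathway and to replace catalytic subunits of the constitutive proteasome with those of the immunoproteasome, and microglia are among the cells of the brain that do this.

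Of the 10 genes, 7 lie on chromosome 17 in or beside the mouse MHC, and the regulatory stretches upstream of the heavy chain genes and of B2m are shown here because they carry the sites through which the family is known to be controlled together. RefSeq promoter windows of GRCm38.p6, which run from 250 bases before to 50 after a start site, were matched for 8 of the 10 genes, and Tap2 and Nlrc5 had no matched window. Capitals mark motif matches, and bases are numbered from the start site. The B2m stretch is chr2:122147437-122147685 on the plus strand, the H2-K1 stretch is chr17:34000348-34000583 on the minus strand, and both end where an annotated exon begins. For H2-D1 the stretch chr17:35262924-35262952 on the plus strand is shown, beside the matching bases of H2-K1 at chr17:34000429-34000457 on the minus strand. The H2-D1 stretch is upstream of the RefSeq start site, but it lies inside the gene as the count tables place it, from 35262730.
B2m: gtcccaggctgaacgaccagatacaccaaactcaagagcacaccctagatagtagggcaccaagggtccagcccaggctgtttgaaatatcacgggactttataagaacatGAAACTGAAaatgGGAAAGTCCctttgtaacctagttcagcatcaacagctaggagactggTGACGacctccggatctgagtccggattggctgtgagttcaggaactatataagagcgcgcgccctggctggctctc
H2-K1: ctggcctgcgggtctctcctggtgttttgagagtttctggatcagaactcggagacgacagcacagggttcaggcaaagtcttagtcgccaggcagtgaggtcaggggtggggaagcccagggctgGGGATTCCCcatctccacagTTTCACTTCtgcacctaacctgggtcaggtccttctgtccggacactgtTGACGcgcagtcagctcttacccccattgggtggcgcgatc
H2-K1 pair of motifs: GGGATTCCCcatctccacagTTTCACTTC
H2-D1 pair of motifs: GGGATTCCCcatctcctcagTTTCACTTC

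The 2 heavy chain promoters were alike. Their pairs of motifs shared 28 of 29 bases, and over the whole upstream windows 180 of 203 aligned bases (88.7%) were the same. Each held GGGATTCCC, a form of the NF-kB site, at -124 in H2-K1 and -170 in H2-D1, a match found on either strand in 0.353% of all 32851 promoter windows. An interferon response motif written GAANNGAAA followed at -104 and -150, and 7.52% of all windows held it. B2m carried the mirrored spacing, GAAANNGAA, at -139 (8.56% of windows) and another form of the NF-kB site, GGACTTTCC, on the opposite strand at -126 (0.344% of windows). The 2 interferon motifs can overlap each other in a sequence, and in these windows no gene held both. The NF-kB spellings searched were those of class I genes and of B2m, so their matches here were fixed in advance and test nothing. Their shares of windows hold for these exact letters and not for NF-kB sites in general.

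The short core TGACG, part of the cyclic AMP response element, occurred in 20.8% of all windows and in those of B2m, H2-K1, H2-D1, Tap1 and Psmb9. Tap1 and Psmb9 start 226 bases apart on opposite strands, their windows share 275 bases, and the same copy of the core was counted for both. The gamma-activated sequence TTCNNNGAA (8.3% of windows) occurred in Psmb8 at -97. The windows of Tapbp and Psmb10 held none of these 6 motifs, which says only that these letters are not in those 300 bases.

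**Figure D1:**
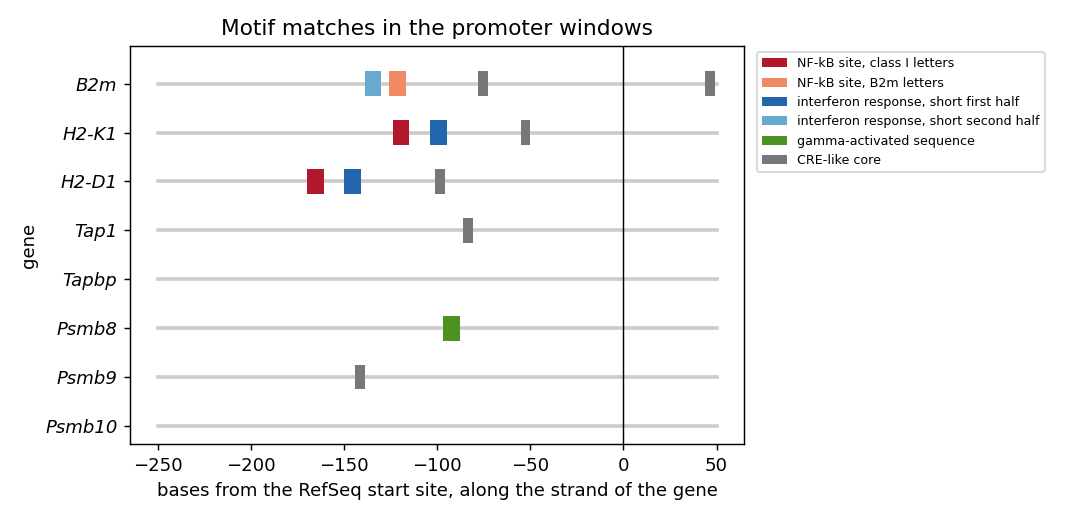
Each grey line is the promoter window of 1 gene, from 250 bases before to 50 after the RefSeq start site, with distance in bases on the horizontal axis and coloured bars where a motif matched. The NF-kB and interferon response motifs lie side by side in B2m, H2-K1 and H2-D1, and Tapbp and Psmb10 have no bar.

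Library totals ran from 33805071 to 54970300 counts, EGCG replicate 2 being the deepest, and 98.0 to 98.1% of them fell on protein-coding genes. At these depths 3 counts, taken as the floor, were worth 0.0544 to 0.0936 CPM (read counts relative to the size of the library, with TMM factors). The least abundant of the 10 genes had 1206 counts in its lowest library. The 10 microglia markers that were checked, among them Aif1, Cx3cr1, Tmem119 and Csf1r, were detected in every library and summed to between 6763 and 9273 CPM. The summed astrocyte markers stood at 13.7 to 19.4 CPM, those of oligodendrocytes at 98.8 to 105, of endothelial cells at 0.905 to 16.8 and of dendritic cells at 5.71 to 9.74. The sums do not rest on every marker of a type. Cldn5 of the 3 endothelial markers and Flt3 of the 3 dendritic cell markers had 0 counts in every library. In Vehicle 1, 2 of the 3 dendritic cell markers were at 0. Of the 4 oligodendrocyte markers, 1 was at 0 in each of Vehicle 1, EGCG 1 and Vehicle 2. Stromal markers such as Col1a1 and Dcn summed to 421, 4.87, 157 and 174 CPM in Vehicle 1, EGCG 1, Vehicle 2 and EGCG 2. Of the lymphocyte markers, which matter because lymphocytes carry much class I, no T, NK or B cell marker had more than 1 count in any library.

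Class I transcripts were abundant in all 4 libraries and immunoproteasome transcripts were readily counted. None of the 10 genes passed the test between EGCG and Vehicle, which only 0.116% of all genes tested did. All 10 were higher with EGCG within replicate 1, by 0.03 to 0.27 on the log2 scale, where 58.5% of all genes tested were higher. In replicate 2 there were 5 higher and 5 lower, between -0.12 and 0.08, where 50.6% of all genes tested were higher. Libraries of different replicate number lay further apart than libraries of different treatment for most of the genes, a share that was not counted over all genes. Tap1 and Psmb9, which adjoin each other, were the 2 that differed between the replicate numbers in the direction opposite to the rest.

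The genes were first ordered by level, as CPM per kilobase of the gene length given in the count tables, averaged over the 4 libraries. B2m stood at 3995 (range 3338 to 4656), rank 7 among the 13811 genes. H2-D1 followed at 1593 (1366 to 1848, rank 16) and H2-K1 at 635 (521 to 783, rank 41). Tapbp had 149.9 (127 to 181), Psmb8 56.8 (50.4 to 65.7) and Psmb10 50.7 (46.4 to 59.9). Below them were Tap2 at 22.4 (20.2 to 24.9), Tap1 at 17.2 (15.1 to 19.3), Psmb9 at 11.8 (at most 13.1, and above Nlrc5 in every library) and Nlrc5 at 8.79 (7.93 to 9.89). Among neighbours in this order, Psmb8 and Psmb10 had ranges that overlapped. The 10 genes together took 1.1% of the counts on tested genes in Vehicle 1 and 1.14% in EGCG 1, against 0.921% in Vehicle 2 and 0.91% in EGCG 2.

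The lower part of this order depends on the length used. With the longest coding transcript of each gene in GENCODE vM21 instead, Psmb8 stood at 95.4 CPM per kilobase, Psmb10 at 65.9, Tap1 at 32.0, Psmb9 at 31.9, Tap2 at 24.6 and Nlrc5 at 9.85. Tap1 then lay above Tap2 rather than below it.

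**Figure D2:**
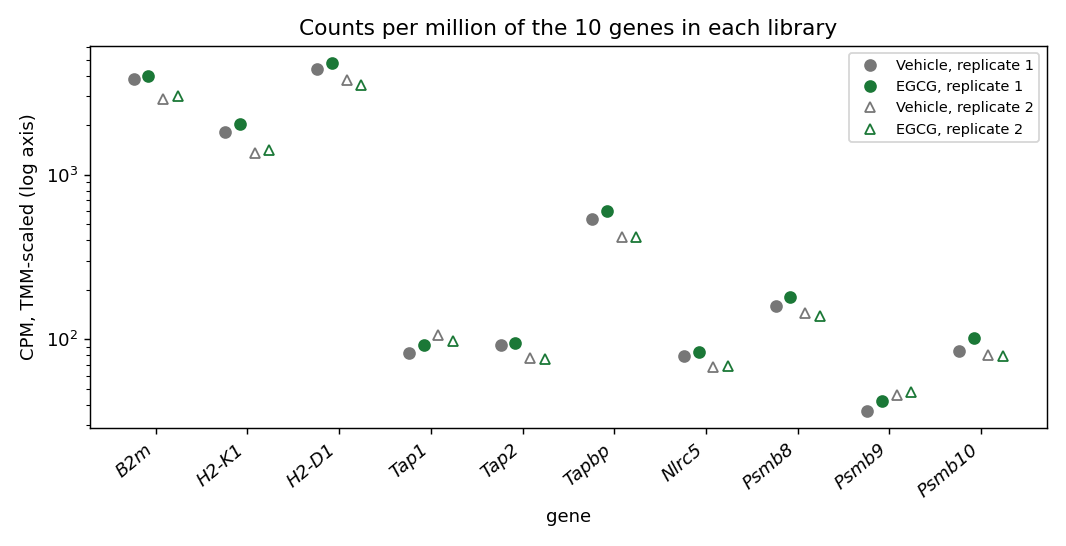
CPM (TMM-scaled, logarithmic axis) of each gene in the 4 libraries, with filled circles for replicate 1, open triangles for replicate 2, grey for Vehicle and green for EGCG. For 8 genes both circles lie above both triangles, and for Tap1 and Psmb9 both triangles lie above both circles.

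B2m encodes beta-2 microglobulin, the light chain that every class I molecule needs to fold and reach the surface (ENSMUSG00000060802, chromosome 2, 122147686 to 122153083, plus strand). Replicate 1 gave 3841 CPM in Vehicle and 4004 in EGCG, and replicate 2 gave 2870.5 and 3029. Both libraries of replicate 1 were above both of replicate 2, and the treatments overlapped. The mean was 3356 ± 686 in Vehicle and 3516 ± 689.5 in EGCG (SD over 2 libraries each). The fitted log2 change was 0.07, with a standard error of 0.29 and a 95% interval of -0.75 to 0.89 (edgeR, adjusted p = 1.0, as for each of the 10 genes). B2m was higher with EGCG within both replicates, by 0.06 and 0.08.

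H2-K1 and H2-D1 encode the classical class I heavy chains, which hold the peptide. H2-K1 (ENSMUSG00000061232, chromosome 17, 33996017 to 34000333, minus strand) was at 1814, 2041, 1359.6 and 1406 CPM in Vehicle 1, EGCG 1, Vehicle 2 and EGCG 2. H2-D1 (ENSMUSG00000073411, chromosome 17, 35262730 to 35267499, plus strand) was at 4383, 4765, 3766 and 3522 CPM in the same libraries. The 2 libraries of replicate 1 were again the highest for both genes. With EGCG, H2-K1 was 0.17 higher in replicate 1 and 0.05 higher in replicate 2 on the log2 scale, and the fitted change was 0.12 with a standard error of 0.30. H2-D1 was 0.12 higher in replicate 1 and lower in replicate 2, at -0.10, and the fitted change was 0.02 with a standard error of 0.28.

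Per kilobase of the gene length in the count tables, H2-K1 amounted to 0.153 to 0.168 of B2m over the 4 libraries and H2-D1 to 0.381 to 0.438. The size of these ratios depends on the length used. Per kilobase of the longest coding transcript the mean levels were 1022 for H2-K1 and 1955 for H2-D1, against 3995 for B2m, so both ratios would be larger. The ratio of H2-D1 to B2m was 0.20 higher on the log2 scale in Vehicle 2 than in Vehicle 1, and with EGCG it differed by 0.06 within replicate 1 and by -0.17 within replicate 2. Class I heavy chain genes are near-identical in stretches and differ between mouse strains, and how reads that match several of them were counted is not given in the sources used here. Of the 1953 windows of 150 bases along the longest coding transcript of H2-D1, 35 (1.79%) occurred unaltered in H2-Q1, and none of the H2-K1 windows occurred in another gene of the reference.

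Tap1 and Tap2 encode the paired chains of the transporter that pumps peptides into the endoplasmic reticulum. Tap1 (ENSMUSG00000037321, chromosome 17, 34187553 to 34197225, plus strand) was at 82.7 and 92.0 CPM in Vehicle and EGCG of replicate 1, and at 106 and 97.2 in those of replicate 2. EGCG was thus above Vehicle in replicate 1, by 0.15 on the log2 scale, and below it in replicate 2, at -0.12, and both EGCG values lay between the Vehicle values. Tap2 (ENSMUSG00000024339, chromosome 17, 34203527 to 34216321, plus strand) was at 92.2, 94.2, 76.5 and 76.2 CPM in the same order, with differences of 0.03 and -0.0059. The fitted log2 changes were 0.005 for Tap1 and 0.01 for Tap2 (standard errors 0.17 and 0.18), and with other scalings both turned slightly negative.

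The proportion of Tap1 to Tap2 differed between the replicate numbers. Per kilobase of gene length it was 0.619 in Vehicle and 0.674 in EGCG of replicate 1, against 0.955 and 0.88 in replicate 2. Tap1 overlaps Psmb9 by 212 bases on the opposite strand in the count tables. The libraries were strand-specific, but whether reads were counted by strand is not given in the sources used here, so reads of that stretch could belong to either gene.

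Tapbp encodes tapasin, which bridges the transporter and the waiting class I molecule (ENSMUSG00000024308, chromosome 17, 33915899 to 33929288, plus strand). Vehicle 1 had 540.2 CPM and EGCG 1 had 598, while Vehicle 2 had 419 and EGCG 2 had 420. The EGCG library was 0.15 higher in replicate 1 and nearly level in replicate 2, at 0.0043. Means were 479 ± 85.9 in Vehicle and 509 ± 126 in EGCG (SD over 2 libraries each). The fitted log2 change was 0.09 with a standard error of 0.27.

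Nlrc5 encodes the transactivator that binds class I promoters and is itself raised by interferon gamma (ENSMUSG00000074151, chromosome 8, 94434356 to 94527272, plus strand). Its values were 78.8, 84.0, 67.4 and 68.3 CPM in Vehicle 1, EGCG 1, Vehicle 2 and EGCG 2. EGCG was higher within both replicates, by 0.09 and 0.02 on the log2 scale, and replicate 1 was above replicate 2 in both treatments. The fitted log2 change was 0.06 with a standard error of 0.18.

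Psmb8, Psmb9 and Psmb10 encode the immunoproteasome subunits that take the places of Psmb5, Psmb6 and Psmb7. Psmb8 (ENSMUSG00000024338, chromosome 17, 34197721 to 34201454, plus strand) was at 160.2, 179.7, 144 and 138 CPM in Vehicle 1, EGCG 1, Vehicle 2 and EGCG 2. Psmb9 (ENSMUSG00000096727, chromosome 17, 34181988 to 34187764, minus strand) was at 36.8, 42.1, 45.6 and 47.8 CPM. Psmb10 (ENSMUSG00000031897, chromosome 8, 105935735 to 105938444, minus strand) was at 84.5, 102, 80.0 and 79.1 CPM. EGCG replicate 1 was the highest library for Psmb8 and Psmb10, and EGCG replicate 2 was the highest for Psmb9.

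Within replicate 1, Psmb10 had the largest difference of the 10 genes with EGCG, 0.27 on the log2 scale, and Psmb9 and Psmb8 were 0.20 and 0.17 higher. Within replicate 2 the differences were -0.02, 0.07 and -0.06 for Psmb10, Psmb9 and Psmb8. The fitted log2 changes were 0.14 for Psmb10 (standard error 0.18, unadjusted p = 0.475, adjusted p = 1.0) and 0.13 for Psmb9 (standard error 0.17, unadjusted p = 0.509, adjusted p = 1.0), the smallest p-values among the 10 genes in edgeR's quasi-likelihood test. For Psmb8 the fitted change was 0.06 with a standard error of 0.19.

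In edgeR's quasi-likelihood test over all 13811 genes, 16 (0.116%) reached an unadjusted p under 0.05 and 0% an adjusted p under 0.1. Of the 10 genes described here, 0 passed either threshold. The median of their fitted log2 changes was 0.07, against 0.01 over all genes tested. The 95% intervals of the fold between EGCG and Vehicle reached from 0.594 for B2m at the lower end to 1.95 for H2-K1 at the upper end. A change to below 0.5 or above 2 times Vehicle thus lies outside every interval of this fit, and every interval includes a fold of 1. This depends on the dispersion method. With the newer edgeR method the standard errors were larger for B2m (0.40), H2-K1 (0.34) and H2-D1 (0.42), and no interval was computed, so a 2-fold change of these genes is not excluded. An exact permutation of 2 libraries against 2 cannot give a two-sided p below 0.333, which is why all p-values rest on the model.

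**Figure D3:**
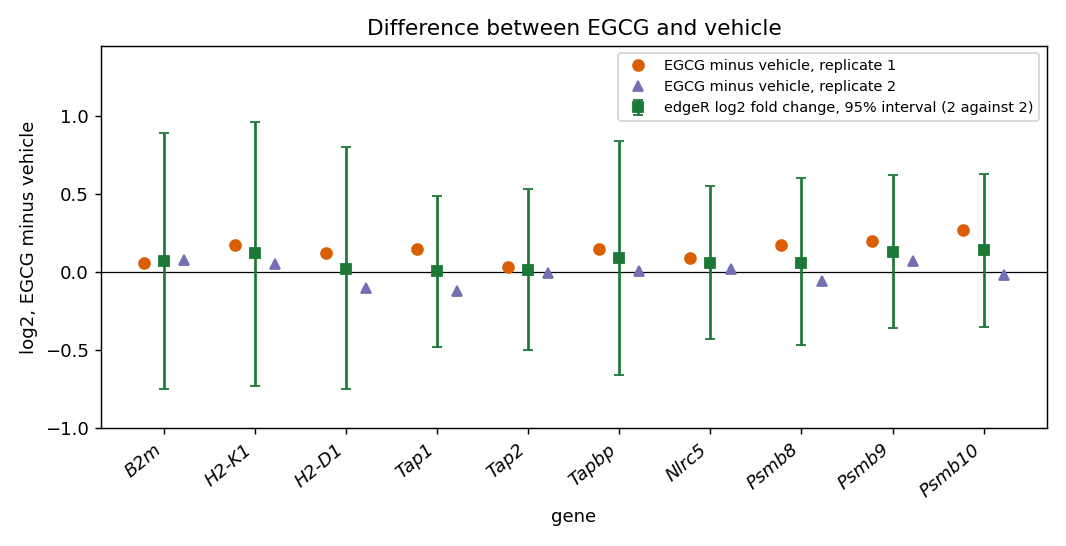
Log2 difference between EGCG and Vehicle for each gene, with squares and bars for edgeR's fitted change and its 95% interval over 2 against 2 libraries, circles for replicate 1 and triangles for replicate 2. All circles lie above 0 (0.03 to 0.27), the triangles lie on both sides (-0.12 to 0.08), and every interval includes 0.

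Within replicate 1 all 10 genes were higher with EGCG, where 58.5% of all genes tested were, with a median difference of 0.15 against 0.03 over all genes. Within replicate 2 there were 5 of 10, against 50.6% of all genes, and the median was -0.00082. B2m, H2-K1, Tapbp, Nlrc5 and Psmb9 were higher within both replicates, 5 of 10, where 29.9% of all genes were. No gene of the 10 had both EGCG libraries above or below both Vehicle libraries, which 11.9% of all genes did. These are comparisons of 1 library with 1, with no test. The libraries of replicate 1 were also those that differed most in stromal markers, 421 CPM in Vehicle against 4.87 in EGCG, while the microglia markers summed to 6763 and 7493 CPM, and the part of either in the result was not tested. In bulk RNA a change in the share of a cell type and a change in RNA per cell cannot be told apart.

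The difference between replicate numbers was larger than that between treatments for most of the 10 genes. The 2 Vehicle libraries lay further apart than EGCG and Vehicle within replicate 1 for 8 of the 10 genes, and within replicate 2 for all 10. The share of all genes tested that did so was not counted, so this is not shown to be particular to the 10. Replicate 1 was above replicate 2 in both treatments for 8 genes, where 40.7% of all genes tested were. The microglia markers differed the other way, with 6763 and 7493 CPM in Vehicle and EGCG of replicate 1 and 9273 and 9123 in replicate 2. The endothelial markers stood at 2.47 and 0.905 against 16.8 and 13.7. Cldn5, 1 of the 3 endothelial markers, had 0 counts in every library, so that sum is not a measure of endothelial cells. The part of either set of markers in the result was not tested. The 8 genes differed from replicate 1 to replicate 2 by -0.08 (Psmb10) to -0.42 (B2m and H2-K1) on the log2 scale in Vehicle, and by -0.30 (Tap2 and Nlrc5) to -0.54 (H2-K1) in EGCG. Tap1 was 0.36 higher in replicate 2 in Vehicle and 0.08 higher in EGCG, and Psmb9 was 0.31 and 0.18 higher. No gene of the 10 was over 2-fold apart between the Vehicle libraries or between the EGCG libraries, which 20.3% and 18.4% of all genes tested were.

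**Figure D4:**
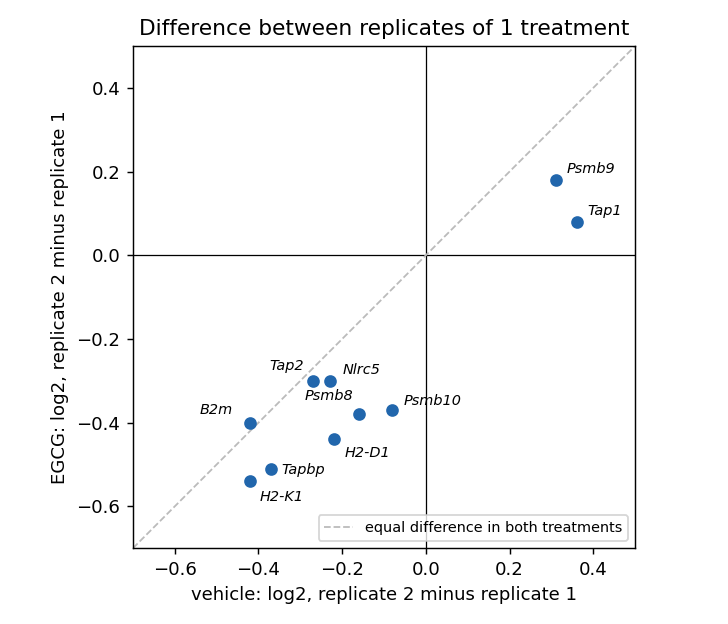
Each point is 1 gene, placed by its log2 difference between replicate 2 and replicate 1 in Vehicle (horizontal) and in EGCG (vertical), and the dashed line marks equal differences. Tap1 and Psmb9 lie in the upper right quadrant and the other 8 genes in the lower left.

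On the chromosome, Psmb9, Tap1, Psmb8 and Tap2 follow one another within 34334 bases of chromosome 17. Psmb8 starts 495 bases after Tap1 ends, and Tap2 starts 2072 bases after Psmb8 ends. The head-to-head neighbours Tap1 and Psmb9 were higher in replicate 2, and the next 2 genes, Psmb8 and Tap2, were higher in replicate 1.

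The constitutive subunits were set beside their immunoproteasome counterparts. Psmb5 was at 49.4, 54.3, 28.9 and 29.5 CPM in Vehicle 1, EGCG 1, Vehicle 2 and EGCG 2. Psmb6 was at 173, 186, 147 and 153 CPM, and Psmb7 at 109, 116, 62.5 and 64.3. All 3 were higher in replicate 1, and all 3 were slightly higher with EGCG within both replicates, with fitted log2 changes of 0.10, 0.09 and 0.08 (standard errors 0.43, 0.18 and 0.43).

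Per kilobase of gene length, the ratio of Psmb8 to Psmb5 was 1.07 in Vehicle and 1.09 in EGCG of replicate 1, and 1.63 and 1.54 in replicate 2. Psmb10 to Psmb7 was 1.56 and 1.76 in replicate 1, and 2.57 and 2.47 in replicate 2. Psmb9 was far below Psmb6, at 0.108 and 0.116 of it in replicate 1 and 0.159 and 0.16 in replicate 2. Every one of these ratios was higher in replicate 2 than in replicate 1 in both treatments. Psmb8 and Psmb10 themselves were lower in replicate 2, in Vehicle by -0.16 and -0.08 on the log2 scale, and Psmb5 and Psmb7 were lower still, by -0.77 and -0.8. Psmb9 was 0.31 higher in Vehicle 2 than in Vehicle 1, and Psmb6 differed by -0.24. Between treatments the ratio of Psmb8 to Psmb5 was 1.35 ± 0.402 in Vehicle and 1.31 ± 0.319 in EGCG, that of Psmb9 to Psmb6 was 0.134 ± 0.0359 and 0.138 ± 0.0311, and that of Psmb10 to Psmb7 was 2.06 ± 0.712 and 2.12 ± 0.5 (SD, n = 2 libraries each), differences within the spread between libraries.

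The level of these ratios depends on the length of the gene model. Their order across libraries cannot, because a length rescales a ratio alike in every library. Per kilobase of the longest coding transcript, Psmb8 to Psmb5 was 1.79, 1.83, 2.75 and 2.58 in Vehicle 1, EGCG 1, Vehicle 2 and EGCG 2. Psmb10 to Psmb7 was then 0.688 and 0.778 in replicate 1 and 1.13 and 1.09 in replicate 2, so whether Psmb10 or Psmb7 was the more abundant in replicate 1 cannot be told from these lengths. Psmb5 shares 7.07% of its windows of 150 bases with the gene Gm3375, so some of its reads could have been counted elsewhere.

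**Figure D5:**
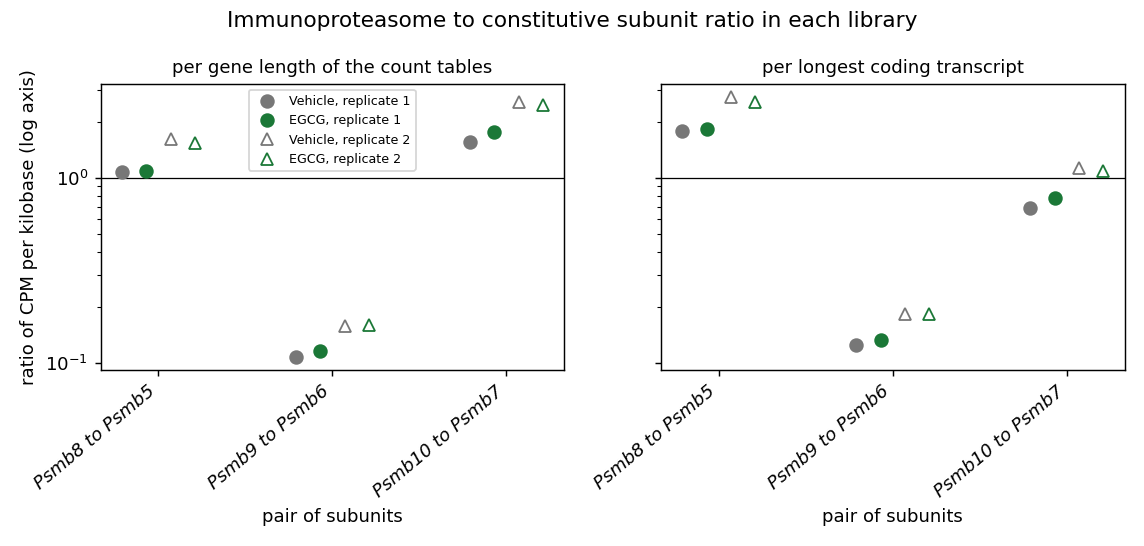
Ratio of each immunoproteasome subunit to its constitutive counterpart in CPM per kilobase (logarithmic axis) in the 4 libraries, with the gene length of the count tables on the left and the longest coding transcript on the right. The line marks a ratio of 1, replicate 2 (open triangles) lies above replicate 1 (filled circles) throughout, and Psmb9 lies well below Psmb6 in both panels.

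Further genes of the pathway were described from lists. Of the 5 loading and trimming genes (Calr, Canx, Pdia3, Tapbpl and Erap1), 0 passed the test, which 0.116% of all genes tested did. Their median log2 change was 0.10 against 0.01 over all genes tested. All 5 were higher with EGCG within both replicates, where 29.9% of all genes tested were. Calr encodes calreticulin, a chaperone of the loading complex, and was the most abundant of them per kilobase. It was at 861, 905, 601 and 666 CPM in Vehicle 1, EGCG 1, Vehicle 2 and EGCG 2, with replicate 1 above replicate 2. The 5 proteasome activator and assembly genes had a median of 0.11, again with 0 past the test. Psme2, a chain of the interferon-inducible activator that caps the proteasome, led them per kilobase and was at 150.2, 179.7, 131 and 131 CPM in Vehicle 1, EGCG 1, Vehicle 2 and EGCG 2.

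Of 19 other class I and class I-like heavy chain genes, 14 were tested and 0 passed, with fitted log2 changes from -0.44 to 0.31 and a median of 0.05. There were 12 higher with EGCG within replicate 1 and 5 within replicate 2, where 58.5% and 50.6% of all genes tested were. Between the Vehicle libraries 9 of the 14 were higher in replicate 2, and 6 were over 2-fold apart, where 20.3% of all genes tested were. Of these 6, H2-Q1, H2-Q10, H2-T22, H2-T23 and Fcgrt were higher in replicate 2, unlike H2-K1 and H2-D1, and Cd1d1 was higher in replicate 1. H2-T23, for example, was at 17.1, 25.2, 79.5 and 74.2 CPM in Vehicle 1, EGCG 1, Vehicle 2 and EGCG 2. H2-M2 was the most abundant of them per kilobase and was at 389, 522, 205 and 217 CPM in Vehicle 1, EGCG 1, Vehicle 2 and EGCG 2. H2-Q6 was at 91.2, 108, 80.0 and 86.9 CPM and H2-Q7 at 60.8, 70.8, 49.5 and 53.7 CPM. H2-M2, H2-Q6 and H2-Q7 were higher with EGCG within both replicates, by 0.42 and 0.08, 0.25 and 0.12, and 0.22 and 0.12 on the log2 scale. In edgeR blocked on the replicate number, an alternative given at the end, these 3 of the 14 had an unadjusted p under 0.05. Of all 13811 genes, 444 did in that fit. Reads of the H2-Q genes can be shared between near-identical copies, which makes their separate values uncertain.

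The heavy chains were also added up, although reads that match several of them could have been dropped or counted in genes outside the sum, such as H2-T10, which is not annotated as protein-coding and had 1223 to 1602 counts per library. Summed over the 13 tested heavy chain genes of the H2 family, the level was 7079 CPM in Vehicle and 7909 in EGCG of replicate 1, against 5957 and 5747 in replicate 2. The sum was thus 0.16 higher with EGCG in replicate 1 and lower in replicate 2, at -0.05 on the log2 scale. H2-K1 and H2-D1 made up 85.8 to 87.6% of it.

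Interferon signalling and the transcription of class I genes were covered by 22 genes, of which 20 were tested and 0 passed, with a median log2 change of 0.02. Ifng, which encodes interferon gamma, had 0 counts in every library, which allows up to 0.0936 CPM in EGCG 1, the highest floor of the 4 libraries, and Ifnb1 had 1 count in each library of replicate 2 and 0 in the others. The receptor gene Ifngr1, the most abundant of the list per kilobase, was at 80.6 and 100.1 CPM in Vehicle and EGCG of replicate 1, and at 349 and 335 in replicate 2. It thus differed between the replicate numbers in the direction opposite to B2m, H2-K1 and H2-D1, and by 0.31 and -0.06 on the log2 scale between the treatments within each replicate.

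The genes most like the average of the 10 were sought by the distance between log2 profiles over the 4 libraries, among 8287 protein-coding genes outside the lists with a mean of at least 10 CPM. The averaged profile stood at 0.04, 0.18, -0.11 and -0.12 around its mean in Vehicle 1, EGCG 1, Vehicle 2 and EGCG 2. The nearest 5 were Stx4a (distance 0.013), Abi2 (0.014), Htra2 (0.015), Rpl32 (0.016) and Ypel5 (0.017). The 10 genes themselves lay between 0.056 (Nlrc5) and 0.475 (Psmb9) from their average, and 5152 genes lay nearer to it than Psmb9, so a profile of 4 libraries was not particular to them.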

How the data were processed

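The data were strand-specific, poly-A selected, paired-end RNA libraries. The authors filtered the reads, aligned them with HISAT2 to GRCm38.p6 and deposited raw counts per gene in 1 table per replicate number. The counting program and annotation are not given in the sources used here. Treatments came from the labels, and the study's sample sheet tied each table to a replicate number.

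Rows were matched between tables by Ensembl identifier (697 and 329 assembled loci were left out). Protein-coding genes whose counts reached 10 in sum were kept, and their counts were TMM-scaled and tested with edgeR 4.0.16 (R 4.3.3), EGCG against Vehicle as the only term, two-sided, with Benjamini-Hochberg adjustment. A gene passed at an unadjusted p under 0.05, and an adjusted p under 0.1 is given beside it. This is the design that the study's methods describe, with another tool, and its tool, DESeq2 (version 1.42.0 here), was an alternative. DESeq2 gave 1 gene with an adjusted p under 0.1 without a block on the replicate number and 7 with it. At both thresholds the study reports more genes than DESeq2 without the block here, and fewer than DESeq2 with it. Library log2 values used a prior count of 2. The script was tested on simulated data for the direction and size of changes far larger than those of the 10 genes. Intervals rest on the spread between libraries as the fit estimates it, and floors cover counting error only. The genes and lists were chosen with earlier results of these data known. All 10 genes are named, with the most abundant gene per kilobase of each list, those with an unadjusted p under 0.05 with or without the replicate block, the constitutive subunits and the 5 nearest profiles. Other genes were named for their role or shared sequence after their values were seen. Coordinates are those of the files, and 7 of the 10 genes had the same position in GENCODE vM21. Promoters are from RefSeq. Alternatives covered the test, scaling, filter, gene classes, block, gene length and leaving out each library.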

Additional observations from a re-analysis of the deposited data

How the results depend on the processing

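None of the 10 genes had an unadjusted p under 0.05 under any alternative, and the smallest p of any was 0.0904, for Psmb9 in edgeR blocked on the replicate number. Libraries of 1 pair share a replicate number and were deposited together, and the labels say no more about them. With the block in edgeR the standard errors of the 10 genes were 0.06 to 0.10, against 0.17 to 0.30 without it. Across the 13811 genes the difference between replicates in Vehicle correlated with that in EGCG (r = 0.64, genes not being independent replicates), and the block moved the genes with p under 0.05 from 16 to 444 in edgeR and from 24 to 153 in DESeq2. H2-Q6, H2-Q7 and H2-M2 were among them in edgeR. That count was 38 with the newer edgeR dispersion method, 35 with all biotypes and 3 with at least 10 counts in every library. Leaving out 1 library gave 8 (without EGCG replicate 1) to 134 (without EGCG replicate 2), 15 without Vehicle replicate 1 and 59 without Vehicle replicate 2, where the lone library of a group is assumed to vary like the others. The count of the 10 genes higher with EGCG then ran from 2 (without EGCG replicate 1) to 9, with 3 without Vehicle replicate 2, and their median from -0.14 to 0.20, with -0.08 without Vehicle replicate 2.

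Of 100 log2 changes of the 10 genes under other settings, 92 kept their direction. Tap1 turned to -0.0012 with DESeq2 and with its size factors in edgeR, -0.01 with upper-quartile factors, -0.03 with total counts and -0.0037 with at least 10 counts in every library. Tap2 turned to -0.0075 (upper quartile) and -0.02 (total counts), and H2-D1 to -0.01 with total counts. With a library left out, 18 of 40 turned. The ranges were -0.15 to 0.29 for B2m, -0.17 to 0.34 for H2-K1, -0.21 to 0.19 for H2-D1, -0.16 to 0.18 for Tap1, -0.15 to 0.15 for Tap2, -0.19 to 0.29 for Tapbp, -0.10 to 0.18 for Nlrc5, -0.14 to 0.21 for Psmb8, -0.02 to 0.28 for Psmb9 and -0.06 to 0.28 for Psmb10. The cause was not tested. The longest coding transcript as the length, an alternative chosen after seeing the data, moved the level per kilobase to 1022 for H2-K1, 1955 for H2-D1, 32.0 for Tap1, 9.85 for Nlrc5, 95.4 for Psmb8, 31.9 for Psmb9 and 65.9 for Psmb10. With other scalings, also added after seeing the data, 9 or 10 of the 10 genes were higher with EGCG within replicate 1 and 4 or 5 within replicate 2. Each of the 10 genes had at least 1206 counts in every library, so depth limits the statements on Ifng and Ifnb1 and not those on the 10 genes.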
